A study of Mus musculus with 22 samples.

Results

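The 9 genes described here encode the TGF-beta ligands (Tgfb1, Tgfb2, Tgfb3), their receptors (Tgfbr1, Tgfbr2, Tgfbr3), a latency protein (Ltbp1) and the feedback inhibitors Smad7 and Skil. They were chosen by symbol, through the Ensembl identifier of each gene, from the 49670 genes that both ventricles' tables hold. All 9 were found, and all 9 passed the filter on low values, a mean of at least 10 normalized counts, in both ventricles. RNA was sequenced in bulk from the right ventricle (RV) and the left ventricle (LV) of neonatal CD1 mice, an outbred stock. In 6 mice the pulmonary artery was banded over a 30 G needle on postnatal day 1 (neonatal pulmonary artery banding, nPAB), so that the RV pumped against a raised pressure. The other 5 mice had a Sham operation on the same day, and all hearts were taken 7 days after surgery. The groups are thus RV nPAB and LV nPAB (n = 6 each) against RV Sham and LV Sham (n = 5 each), all CD1, with a single batch label and no allele or drug named for any of them.

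TGF-beta ligands are secreted in a latent form. Each mature ligand stays bound to its own propeptide, and proteins of the LTBP family, Ltbp1 among them, tether that complex to the extracellular matrix until integrins or proteases release it. The free ligand binds the type II receptor Tgfbr2, which recruits and activates the type I receptor Tgfbr1. Tgfbr3 (betaglycan) has no kinase of its own. It presents ligand to Tgfbr2, above all the Tgfb2 product, and its shed extracellular part binds ligand away from the cell. Activated Tgfbr1 phosphorylates Smad2 and Smad3, which enter the nucleus with Smad4. Smad7 blocks the type I receptor, and Skil (SnoN) is a co-repressor that binds the SMAD complex. Transcription of both is known to be induced by TGF-beta signalling, so they work as feedback inhibitors. In the heart the pathway is best known for its part in valve and cushion formation and in the fibroblast response to load.

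The libraries held 7.11 to 11.3 M reads each, counted as whole reads recovered from the deposited values. Xist and Ddx3y, transcripts that mark female and male tissue, gave a single sex for the RV and LV libraries of 9 of the 11 mice. In nPAB mouse 6 the RV library was female and the LV library male, and in nPAB mouse 7 the RV library was male and the LV library female, so neither labelled pair can be a single animal. Counts of calls for the members and the 5 pathway lists are therefore given with and without these 4 libraries. So is each named call there that was lost or gained without them. Marker counts are given with all mice only. Of 12 lists of cell type markers, none had a marker at 0 in every library. The 6 cardiomyocyte markers, the defining genes of the tissue, summed to 201765 to 285144 normalized counts in RV nPAB libraries and to 257424 to 309436 in RV Sham libraries. In the RV, 1 of these rose and 3 fell, and in the LV 1 rose and 0 fell. Over all genes tested, 11.1% were called higher and 10.8% lower in the RV, and 4.76% and 4.55% in the LV. Beside those shares, a single call in a short marker list is not read as a shift of that cell type. Summed fibroblast markers ranged from 24467 to 37648 in RV nPAB and from 33549 to 43241 in RV Sham, and of the 6, Pdgfra fell. The pericyte and smooth muscle markers did not overlap in sum, with 26382 to 31950 in RV nPAB and 32109 to 37970 in RV Sham. Abcc9, the 1 of these 6 that fell in either ventricle, was at 6361 ± 1175 in RV nPAB and 11235 ± 839 in RV Sham (SD). The most abundant of them, Rgs5, was at 17987 ± 1736 in RV nPAB and 15975 ± 2647 in RV Sham, and Rgs5 and Pdgfrb, at log2 fold changes of 0.18 and 0.12 in the RV, did not pass. Kcnj8 averaged 351 in RV nPAB and 357 in RV Sham. Acta2 (3378 and 4898) and Myh11 (142 and 224) had lower means in RV nPAB and did not pass. The lower sum is thus not a fall of every marker in the list. Atrial markers summed to 3147 to 16232 in RV nPAB and 184 to 2526 in RV Sham, with a list median log2 fold change of 1.76. Nppa, at 4348 ± 2385 in RV nPAB and 62.3 ± 36.7 in RV Sham, was the 1 of 5 that rose. Myl7, at 2593 ± 2235 and 954 ± 769, and Myl4, at 1428 ± 1006 and 379 ± 284, varied widely and did not pass. The same held for Sln, at 205 ± 196 and 58.3 ± 37.4, and Bmp10, at 38.8 ± 45.8 and 4.77 ± 7.23. Nppa was also the 1 of 4 tested atrial markers that rose in the LV. The list median log2 fold change there was -0.06, so the LV call is of Nppa and not of the list. An erythroid marker, 1 of 4 tested, rose in the RV. In either ventricle no endothelial, endocardial, macrophage, platelet, neutrophil or epicardial marker passed the test, and none of the 4 lymphocyte markers reached the filter. In bulk tissue, fewer cells of a type and less RNA per cell cannot be told apart. The part of these marker changes in the results below was not tested.

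Banding changed the feedback inhibitors in both ventricles, and a receptor and the latency protein in the RV. In the RV, Smad7 and Skil rose and Tgfbr3 and Ltbp1 fell, while the 3 ligands, Tgfbr1 and Tgfbr2 did not pass the test. That is 2 members higher and 2 lower of 9, beside 11.1% of all 13660 genes called higher and 10.8% called lower in RV nPAB. In the LV, Smad7 and Skil rose and the other 7 members did not pass, beside 4.76% of 13528 genes called higher and 4.55% called lower in LV nPAB. With only 9 members, chosen with earlier results of these data known, these counts stand as a description beside the background. Calls are from limma on log2(normalized count + 1), with the Benjamini-Hochberg adjusted p under 0.05 over all genes tested. The median log2 fold change of the 9 members was 0.27 in the RV, against 5.16e-05 over all genes, and 0.09 in the LV, against -0.01 over all genes. With mice 6 and 7 left out, 3 members were higher and 2 lower by this call in the RV, Tgfb2 being the member added. In the LV, 1 was then higher and 0 lower. Over all genes, 2798 of 13690 were then called in the RV and 668 of 13542 in the LV. With all mice these were 2999 of 13660 and 1260 of 13528.

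**Figure D1:**
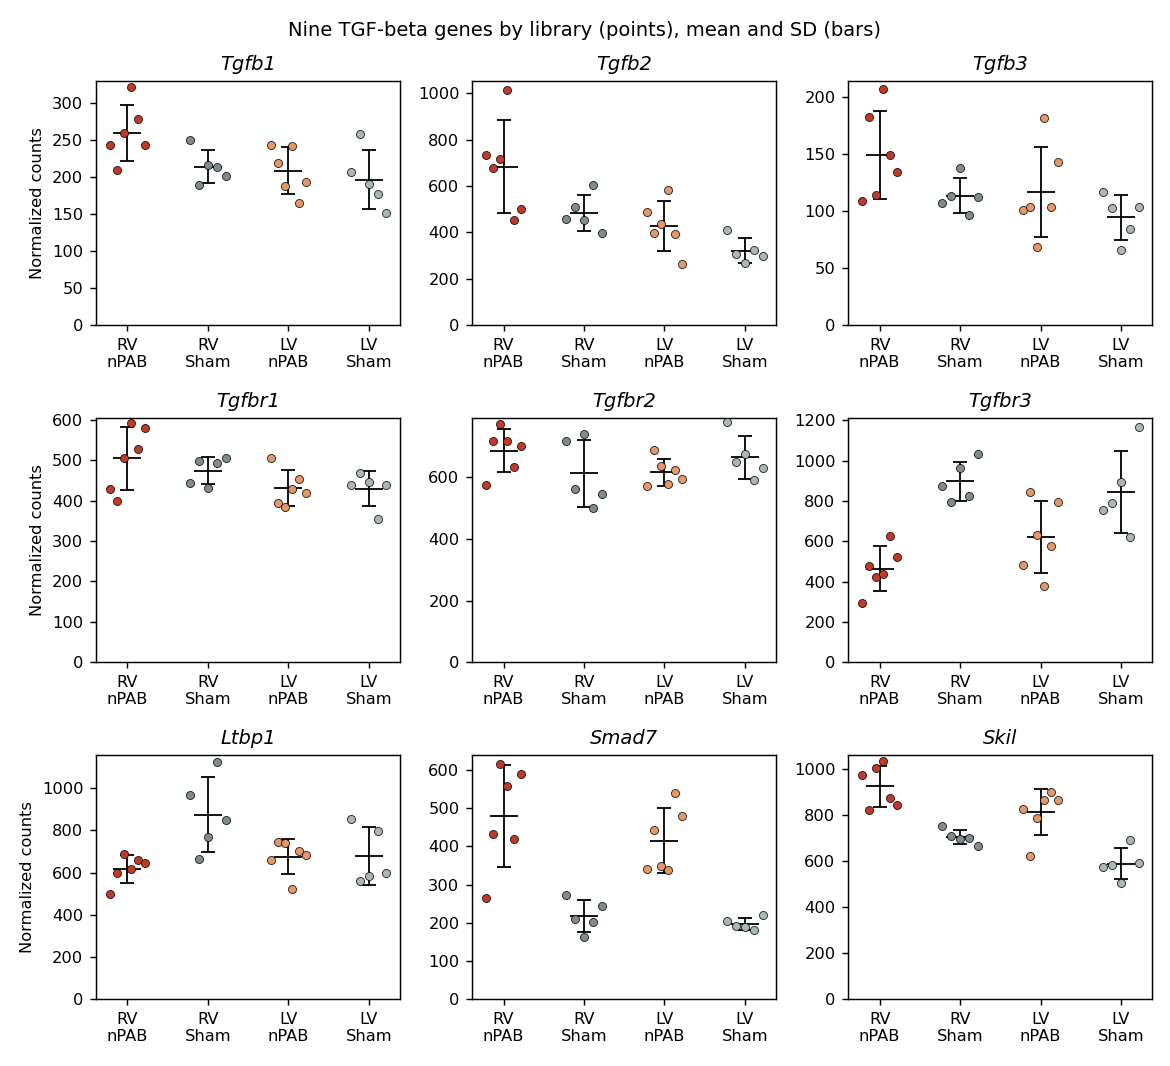
Normalized counts of the 9 genes in each library (points), with the group mean and SD (bars), for RV nPAB, RV Sham, LV nPAB and LV Sham. Values of the RV and the LV were normalized separately, so groups are to be compared within a ventricle. Smad7 and Skil sit higher in nPAB in both ventricles, and RV Tgfbr3 sits at 296 to 625 in nPAB, below all Sham libraries.

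The ligands come first. Tgfb2, the ligand with the strongest tie to heart development, lies on chromosome 1, Tgfb1 on chromosome 7 and Tgfb3 on chromosome 12 (mm10). Tgfb2 in the RV ran from 452 through a median of 697 to 1015 normalized counts in nPAB, against 395, 456, 508, 453 and 602 in the Sham libraries. Of the 6 nPAB libraries, 4 lay above all Sham libraries and the other two, mice 7 and 8, lay within the Sham range. The log2 fold change of 0.46 ± 0.18 (SE) did not pass (limma adjusted p = 0.0738, 95% interval 0.09 to 0.84). This call turned on single libraries, since limma passed Tgfb2 without nPAB mouse 7 (adjusted p = 0.0143), without nPAB mouse 8 (0.0387) and without Sham mouse 13 (0.0485). It also passed without mice 6 and 7 together (adjusted p = 0.0265) and with DESeq2 on the recovered reads (adjusted p = 0.0237). In the LV, Tgfb2 ran from 263 through 417 to 583 in nPAB, against 296, 412, 306, 268 and 324 in Sham. The groups overlapped, with a log2 fold change of 0.38 ± 0.16 (limma adjusted p = 0.153), which passed without nPAB mouse 8 (0.0261). An annotated antisense transcript, Gm29491, shares 124 bp of exon with Tgfb2, and whether counting used strand is not given in the sources used here.

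Tgfb1, the ligand most studied in fibrosis, ran from 209.8 through 252 to 322 normalized counts in RV nPAB, against 202, 249.9, 189.7, 216 and 214 in RV Sham. In the RV 3 of 6 nPAB libraries exceeded all Sham libraries, and the log2 fold change was 0.27 ± 0.13 (limma adjusted p = 0.139, 95% interval 0.01 to 0.53). In the LV, Tgfb1 ran from 166 through 206 to 244 in nPAB, inside the Sham range set by 152, 207, 258, 190.5 and 178. The LV log2 fold change was 0.09 ± 0.15 (limma adjusted p = 0.753, 95% interval -0.22 to 0.41). Tgfb3 had the fewest reads of the ligands, from 109 through 142 to 207 in RV nPAB, against 113, 107, 114, 138 and 96.2 in RV Sham. Its RV log2 fold change was 0.36 ± 0.18 (limma adjusted p = 0.164, 95% interval -0.01 to 0.74). LV Tgfb3 ran from 68.3 through 104 to 182 in nPAB and over 103, 117, 103, 65.6 and 84.0 in Sham, at 0.27 ± 0.23 (limma adjusted p = 0.511, 95% interval -0.21 to 0.74). The library of nPAB mouse 6 was the highest for Tgfb3 in both ventricles. Exons of Tgfb3 overlap those of Gm37804 and Gm48008 on the opposite strand by 163 and 257 bp. All 3 ligands thus had positive log2 fold changes in both ventricles, none of which passed the test.

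Ltbp1 covers chromosome 17 from 75005568 to 75392512 on the plus strand (ENSMUSG00000001870, mm10), with 10691 bp of merged exons over 10 transcripts. RefSeq places Ltbp1 starts at a pair of promoters 173.3 kb apart, and 2 GENCODE transcripts of the gene start close to each of them. The deposited count adds up all transcripts, so the value of the gene does not say which start was used. Both promoters are shown because Ltbp1 is among the members that fell in the RV and because both starts feed its count. They are given 5′ to 3′ on the plus strand of GRCm38.p6, from 250 bases before to 50 bases after the start, and capitals mark CAGAC or its reverse complement GTCTG, the core of a SMAD box.
Ltbp1 upstream promoter, chr17:75005279-75005578: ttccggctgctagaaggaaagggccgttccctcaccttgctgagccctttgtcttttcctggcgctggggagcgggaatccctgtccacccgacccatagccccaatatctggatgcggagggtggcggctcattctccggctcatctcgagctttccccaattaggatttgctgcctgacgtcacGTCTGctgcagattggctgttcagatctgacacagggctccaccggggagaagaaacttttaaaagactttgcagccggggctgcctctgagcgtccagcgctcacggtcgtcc
Ltbp1 downstream promoter, chr17:75178531-75178830: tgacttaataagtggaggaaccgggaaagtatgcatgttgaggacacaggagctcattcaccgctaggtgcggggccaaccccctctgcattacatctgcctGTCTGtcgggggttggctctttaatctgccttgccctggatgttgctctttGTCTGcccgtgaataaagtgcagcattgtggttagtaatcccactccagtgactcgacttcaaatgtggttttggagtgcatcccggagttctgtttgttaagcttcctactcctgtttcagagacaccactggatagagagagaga
The upstream promoter held 1 match and the downstream promoter 2, on either strand. Such a short run of letters is common, and 49.6% of 32851 RefSeq promoters of this length held it. The longer SMAD elements GTCTAGAC and AGCCAGACA, in 0.213% and 0.387% of promoters, and the AP-1 element TGACTCA, in 5.20%, had no match in either. The cyclic AMP element TGACGTCA, in 1.79% of promoters, had 1 match upstream, with 1 base between it and the capitals. Of the 9 genes, 5 had an entry in the RefSeq promoter table: Tgfb1, Tgfb2, Tgfbr1, Tgfbr2 and Ltbp1.

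In the RV, Ltbp1 ran from 500.1 through a median of 630.1 to 687 normalized counts in nPAB, against 846, 966, 666, 770.4 and 1123 in Sham. Of the 6 nPAB libraries 5 lay below every Sham library, and mouse 5 at 687 lay just above the lowest Sham value of 666. Ltbp1 fell, to 617 ± 65.8 in RV nPAB against 874 ± 177 in RV Sham (SD, log2 fold change -0.49 ± 0.12 SE, limma adjusted p = 0.00659). Pdgfra, the 1 of 6 fibroblast markers that passed, also fell in the RV (log2 fold change -0.45), and its part in this was not tested. In the LV it ran from 521 through 692 to 745 in nPAB, against 599, 853, 559, 582 and 799 in Sham. The LV groups overlapped almost fully, with a log2 fold change of 0.00 ± 0.12 (limma adjusted p = 0.987, 95% interval -0.25 to 0.26). The sign of that LV value turned with several settings.

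Of the receptors, Tgfbr3 changed most. It lies on the minus strand of chromosome 5 from 107106570 to 107289629 (ENSMUSG00000029287, mm10). In the RV, Tgfbr3 ran from 296 through a median of 458 to 625 normalized counts in nPAB, against 1031, 873, 794, 961 and 824 in Sham. All 6 nPAB libraries lay below all 5 Sham libraries, as they did for 6.06% of the genes tested in the RV. Tgfbr3 fell to 464 ± 109.8 in RV nPAB against 897 ± 98.4 in RV Sham (SD), which is 0.508 times the Sham level on the fitted scale. The log2 fold change was -0.98 ± 0.15 (SE, limma adjusted p = 1.67e-04), and the call held in all 24 alternatives tried, mice 6 and 7 left out among them (-1.08). An annotated transcript of unknown coding status, Gm43422, shares 297 bp of exon on the same strand.

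In the LV, Tgfbr3 ran from 380.3 through 604 to 846 in nPAB, against 1167, 757, 788, 892 and 621 in Sham. There 3 of 6 nPAB libraries lay below all Sham libraries and the others lay among them. The LV log2 fold change of -0.47 ± 0.21 did not pass (limma adjusted p = 0.192, 95% interval -0.93 to -0.01), nor did it in any of 24 alternatives (adjusted p from 0.0975 to 0.422). The signalling receptors did not pass in either ventricle. Tgfbr1, the type I kinase on chromosome 4, ran from 399 through 516 to 592 in RV nPAB, against 506, 443, 497, 432 and 493 in RV Sham. The RV nPAB libraries lay on both sides of the Sham range, 3 above and 2 below it, with a log2 fold change of 0.08 ± 0.11 (limma adjusted p = 0.664, 95% interval -0.15 to 0.31). Leaving out mice 6 and 7 put it at -0.00017.

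Tgfbr1 in the LV ran from 384 through 423 to 506 in nPAB, against 439, 438, 469, 445 and 355 in Sham, with a log2 fold change of 0.00 ± 0.10 (limma adjusted p = 0.985, 95% interval -0.21 to 0.22). Tgfbr2, the type II kinase on chromosome 9, ran from 576 through 709.9 to 772 in RV nPAB, against 547, 718, 564, 739 and 499 in RV Sham. The RV log2 fold change was 0.17 ± 0.11 (limma adjusted p = 0.292, 95% interval -0.06 to 0.41), and 1 nPAB library stood above all Sham libraries. LV Tgfbr2 ran from 573 through 609.7 to 689 in nPAB, against 631, 778, 649.6, 675 and 589.9 in Sham. Its sign was the opposite there, with a log2 fold change of -0.11 ± 0.09 (limma adjusted p = 0.498, 95% interval -0.29 to 0.08).

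**Figure D2:**
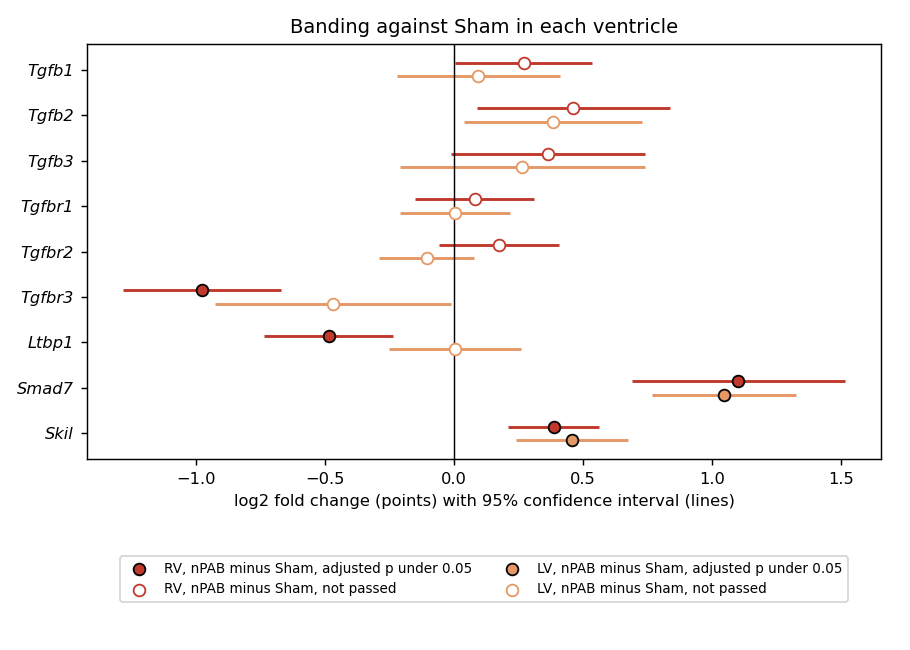
Log2 fold change of nPAB against Sham (points) with the 95% confidence interval (lines) for each gene, RV above LV, filled where the limma adjusted p is under 0.05. Smad7 is at 1.10 in the RV and 1.05 in the LV, and Skil at 0.39 and 0.46, while Tgfbr3 at -0.98 and Ltbp1 at -0.49 are filled in the RV.

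Both feedback inhibitors rose in both ventricles. Smad7 lies on chromosome 18 and Skil on chromosome 3 from 31095058 to 31122577 (ENSMUSG00000027660, plus strand, mm10). In the RV, Smad7 ran from 266 through a median of 495 to 615 normalized counts in nPAB, against 244, 272, 209, 162 and 202 in Sham. Of the 6 nPAB libraries 5 lay above every Sham library, and mouse 10 at 266 lay within the Sham range. Smad7 averaged 479 ± 132 in RV nPAB and 218 ± 41.9 in RV Sham (SD), a rise of 1.10 ± 0.19 on the log2 scale or 2.15-fold (limma adjusted p = 8.89e-04). In the LV, Smad7 ran from 339 through 395 to 539 in nPAB, against 220.1, 205, 192, 188 and 181 in Sham. The LV groups did not overlap, as for 3.38% of genes tested there that were higher in nPAB. The LV rise was 1.05 ± 0.13 on the log2 scale or 2.07-fold (limma adjusted p = 1.23e-04). Among RV nPAB libraries Smad7 differed by more than in any other group, with an SD of 132 against 85.0 in LV nPAB.

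Skil changed less than Smad7 in both ventricles. In normalized counts, Skil had a smaller SD than Smad7 in each RV group and a larger SD in each LV group. In the RV it ran from 822 through a median of 924 to 1035 normalized counts in nPAB, against 668, 754, 710.5, 696 and 701 in Sham. All 6 nPAB libraries lay above all Sham libraries, as for 6.84% of genes tested in the RV, and Skil rose by 0.39 ± 0.08 on the log2 scale or 1.31-fold (limma adjusted p = 0.00264). In the LV it ran from 625 through 846 to 903 in nPAB, against 595, 577, 584, 505 and 692 in Sham. There 5 of 6 nPAB libraries lay above all Sham libraries and mouse 11 at 625 did not. The LV rise was 0.46 ± 0.10 on the log2 scale or 1.37-fold (limma adjusted p = 0.00911). LV Skil without mice 6 and 7 was at 0.39 and no longer passed (limma adjusted p = 0.0588).

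Whether banding changed these genes differently in the ventricles was asked of the difference log2 RV minus log2 LV within each mouse. None of the 9 members passed (limma, adjusted p from 0.194 to 0.959), in a comparison where 1 gene of 13364, 0.00748%, was called. At an unadjusted p under 0.05 that comparison had 1474 genes (11.0%), and edgeR called 158 and DESeq2 249. Ltbp1 had the smallest p of the members. Its RV minus LV difference was -0.10, 0.24, -0.09, -0.08, -0.40 and -0.32 in nPAB mice 5, 6, 7, 8, 10 and 11, against 0.50, 0.18, 0.25, 0.40 and 0.49 in Sham mice 9 to 13. All nPAB mice but mouse 6 lay below all Sham mice, and the nPAB minus Sham value was -0.49 ± 0.12 (95% interval -0.76 to -0.22, adjusted p = 0.194). The call depended on the method: Ltbp1 passed with edgeR (adjusted p = 0.0343), with DESeq2 (0.00840) and with limma's variance trend taken over the mean level (0.0295). It failed in the other 23 alternatives, where the adjusted p reached 0.544. Without mice 6 and 7 the value was -0.59 (adjusted p = 0.0817), and the 4 remaining nPAB mice lay at -0.40 to -0.08, below the Sham range of 0.18 to 0.50.

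For Tgfbr3 the RV minus LV difference was -0.57, -0.60, -0.71 and -0.82 in nPAB mice 5, 8, 10 and 11 and 0.21 and 0.12 in nPAB mice 6 and 7, against -0.18, 0.20, 0.01, 0.11 and 0.41 in Sham mice 9 to 13. The mice whose libraries are of unlike sex were thus the ones that lay within the Sham range. With all mice the nPAB minus Sham value was -0.51 ± 0.22 (limma adjusted p = 0.435, 95% interval -0.99 to -0.03). Leaving out mice 6 and 7 gave -0.79 (adjusted p = 0.101). With mice 6 and 7 paired crosswise, which matches sex, the estimate is unchanged by construction and the limma adjusted p was 0.539. The RV of mouse 6, at 438 normalized counts, then stood against the LV of mouse 7 at 576. The RV of mouse 7, at 625, stood against the LV of mouse 6 at 380. The RV was thus lower in the first pair and higher in the second. For Tgfbr2 the value was 0.28 ± 0.10 (limma adjusted p = 0.336, 95% interval 0.06 to 0.50), the log2 fold change being 0.17 in the RV and -0.11 in the LV.

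For the feedback genes the difference between ventricles was 0.06 ± 0.24 for Smad7 (limma adjusted p = 0.959, 95% interval -0.47 to 0.58) and -0.07 ± 0.14 for Skil (adjusted p = 0.905, 95% interval -0.38 to 0.24). These intervals leave room for unequal rises, wide for Smad7 because its nPAB mice ranged from -0.37 to 0.82. The ligands lay at 0.18 for Tgfb1, 0.08 for Tgfb2 and 0.10 for Tgfb3, and Tgfbr1 at 0.07, all with intervals that include 0.

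**Figure D3:**
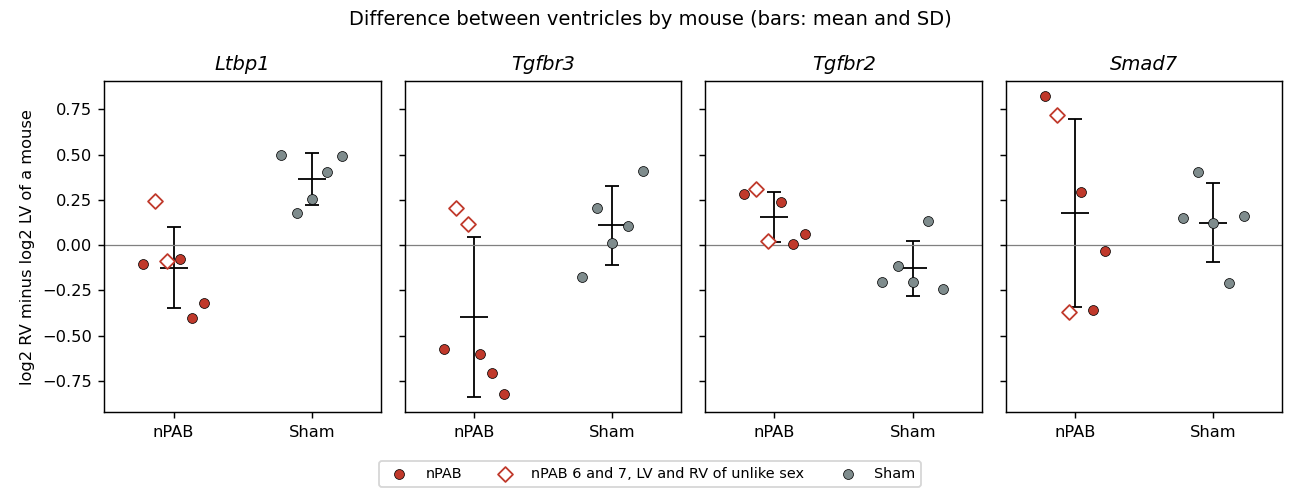
Log2 RV minus log2 LV within each mouse for Ltbp1, Tgfbr3, Tgfbr2 and Smad7, nPAB left and Sham right, with the mean and SD (bars) and open diamonds for nPAB mice 6 and 7. For Tgfbr3 the other 4 nPAB mice lie at -0.82 to -0.57, while the diamonds, at 0.12 and 0.21, fall among the Sham mice at -0.18 to 0.41.

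Levels of different genes were set side by side per kilobase of merged exons. In RV nPAB the order of mean level was Tgfb2 (118 normalized counts per kb), Smad7 (106), Skil (95.5), Tgfbr2 (83.9), Tgfbr1 (77.3), Tgfbr3 (70.9), Ltbp1 (57.7), Tgfb1 (51.5) and Tgfb3 (44.1), and every neighbouring pair overlapped in range. In RV Sham it was Tgfbr3 (137), Tgfb2 (83.4), Ltbp1 (81.8), Tgfbr2 (74.9), Skil (72.8), Tgfbr1 (72.5), Smad7 (48.2), Tgfb1 (42.5) and Tgfb3 (33.6). There Tgfbr3 stood apart from Tgfb2, and Tgfbr1 from Smad7, while the other neighbours overlapped. In LV nPAB the order was Tgfbr3 (94.6), Smad7 (91.7), Skil (83.8), Tgfbr2 (75.2), Tgfb2 (73.7), Tgfbr1 (65.9), Ltbp1 (63.1), Tgfb1 (41.4) and Tgfb3 (34.6), with a gap in range between Ltbp1 and Tgfb1 alone. In LV Sham it was Tgfbr3 (129), Tgfbr2 (81.2), Tgfbr1 (65.7), Ltbp1 (63.5), Skil (60.9), Tgfb2 (55.4), Smad7 (43.6), Tgfb1 (39.0) and Tgfb3 (27.9), with a gap between Tgfbr2 and Tgfbr1 alone. Tgfbr3 thus had the highest mean level per kb in 3 of the groups and the sixth in RV nPAB. The order rests on the length used: with the longest transcript, Skil came first in RV nPAB at 138 and in LV nPAB at 121, where Tgfbr3 at 102 came next, so Tgfbr3 led in the Sham groups.

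Shares within a library do not depend on how the tables were scaled. Of the summed level per kb of the 3 receptors, Tgfbr3 made up 30.3 ± 4.66% in RV nPAB (range 25.0 to 37.7%) and 48.1 ± 2.61% in RV Sham (range 45.6 to 52.2%), with no overlap. In the LV its share was 39.5 ± 7.11% in nPAB and 46.3 ± 5.45% in Sham, with overlap. Tgfbr2 took 36.4 ± 3.73% in RV nPAB against 26.3 ± 3.73% in RV Sham, and Tgfbr1 33.3 ± 3.46% against 25.6 ± 3.08%. These shares are descriptions, with no test of their own, and a fall of Tgfbr3 alone lifts the shares of the others. Of the ligands, Tgfb2 had the largest mean share in all groups, 54.6 ± 6.56% in RV nPAB and 52.1 ± 5.05% in RV Sham, and 49.0 ± 6.96% in LV nPAB and 45.3 ± 3.71% in LV Sham. This holds for merged exons: per kb of the longest transcript, mean levels of Tgfb2 and Tgfb1 were 83.4 and 81.2 in LV nPAB, and in LV Sham Tgfb1 was the higher, at 76.5 against 62.8 for Tgfb2.

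**Figure D4:**
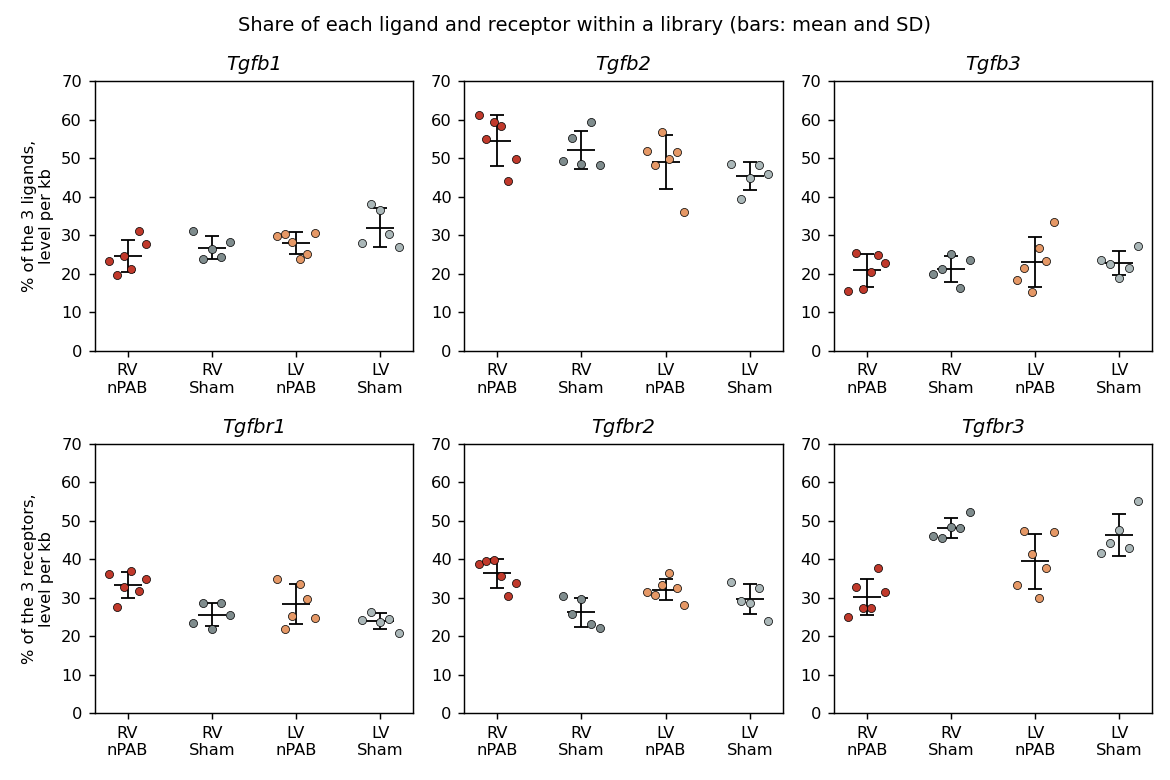
Share of each ligand in the summed level per kb of the 3 ligands (upper row) and of each receptor in that of the 3 receptors (lower row), in percent per library (points) with the group mean and SD (bars). The Tgfbr3 share lies at 25.0 to 37.7% in RV nPAB, below the 45.6 to 52.2% of RV Sham, and the ligand shares overlap between nPAB and Sham.

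The rest of the pathway was read from 5 lists holding 87 further genes. The lists were chosen with earlier results of these data known. Their counts are thus descriptions and cannot test whether the pathway as a whole changed. Of the proteins that hold or release latent ligand, 5 of 19 tested rose, 2 fell and 12 did not pass in the RV, and 6 rose, 1 fell and 12 did not pass in the LV, beside 22.0% of all genes called for the RV and 9.31% for the LV. The median log2 fold change of this list was 0.21 in the RV and 0.22 in the LV. Thbs1, a secreted activator of latent TGF-beta, averaged 782 ± 203 normalized counts in RV nPAB and 271 ± 80.8 in RV Sham (log2 fold change 1.54, limma adjusted p = 6.61e-05), and in the LV its 1.51 did not pass (adjusted p = 0.0598). LV Thbs1 passed with edgeR (adjusted p = 0.00911), DESeq2 (0.00341) or array weights (0.0350) and without nPAB mouse 11 (0.0294). Adamtsl2, a matrix protein that binds LTBP and fibrillin, rose by 2.00 in the RV and 1.43 in the LV on the log2 scale. Its LV call was lost without mice 6 and 7 (adjusted p = 0.130) and without nPAB mouse 6, 7 or 11 or Sham mouse 11, 12 or 13 (adjusted p from 0.0519 to 0.0828), and also without the trend and robust options (0.0833). Itgb1, the shared integrin beta chain, rose by 0.54 and 0.31, and its LV call was lost without limma's trend and robust options (adjusted p = 0.0617). Itgb6, the beta chain of an integrin that activates latent TGF-beta, fell to 105 ± 59.8 in RV nPAB against 412 ± 54.0 in RV Sham, and to 162 ± 57.6 in LV nPAB against 421 ± 108 in LV Sham, with no overlap in either (as for 6.06% and 3.16% of all genes, log2 fold changes -2.15 and -1.42, limma adjusted p = 0.00115 and 0.00365). Fbn1, the microfibril protein fibrillin, rose by 0.47 in the LV (adjusted p = 0.00102) and was at 0.27 in the RV (adjusted p = 0.0538). RV Fbn1 passed in limma without nPAB mouse 5 (0.0146) or 10 (0.0378) or with a sex term (0.0400), and with DESeq2 (0.0402). Furin, the protease that cleaves the propeptide, rose by 0.41 in the LV and was at 0.27 in the RV (adjusted p = 0.147), where it passed without nPAB mouse 5 (0.0481). With mice 6 and 7 left out, 4 of the list rose and 2 fell in the RV, and 2 rose and 1 fell in the LV. For this and the following lists, calls over all genes were then fewer too. They numbered 2798 of 13690 in the RV and 668 of 13542 in the LV, against 2999 and 1260 with all mice. Leaving out single mice gave 2 rises in the LV without nPAB mouse 7 or Sham mouse 12, and 3 without nPAB mouse 6, Sham mouse 11 or Sham mouse 13. Furin no longer passed in the LV without mice 6 and 7 (adjusted p = 0.119), without nPAB mouse 7 (0.0574), Sham mouse 10 (0.0604) or Sham mouse 12 (0.0625), or without the trend and robust options (0.0588).

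Of the co-receptors and receptor regulators, 4 of 12 rose, 1 fell and 7 did not pass in the RV, and 2 rose, 0 fell and 10 did not pass in the LV, beside 11.1% of all genes called higher and 10.8% lower in the RV, and 4.76% and 4.55% in the LV. The counts without mice 6 and 7 were the same in both ventricles. The list median was 0.14 in the RV and 0.07 in the LV. Eng (endoglin), the endothelial relative of Tgfbr3, rose in both ventricles, while Tgfbr3 fell in the RV and did not pass in the LV. Eng was at 2049 ± 267 in RV nPAB against 1428 ± 79.8 in RV Sham, and at 1899 ± 320 in LV nPAB against 1264 ± 159 in LV Sham (log2 fold changes 0.51 and 0.58, limma adjusted p = 6.17e-04 and 0.00279). The summed endothelial markers overlapped between nPAB and Sham, at 8934 to 10369.8 in RV nPAB and 9016 to 10381 in RV Sham. In the LV they were at 8368 to 10506 in nPAB and 9589 to 10566 in Sham. Cd109, a surface antagonist of the receptors, rose by 0.70 in the RV and was at 0.09 in the LV (adjusted p = 0.760). Tgfb1i1 (Hic-5), a focal adhesion adaptor, rose by 0.72 in the RV and was at 0.28 in the LV (adjusted p = 0.214). Dab2, an endocytic adaptor of the receptors, fell by 0.42 in the RV and was at -0.28 in the LV (adjusted p = 0.187), where it passed without nPAB mouse 10 (0.0168). Vasn, a ligand-binding membrane protein, rose by 1.02 in the LV and was at 0.44 in the RV (adjusted p = 0.0595), where it passed without nPAB mouse 5 (0.0428) and with DESeq2 (0.0346). In the LV, 1 gene of the list fell without nPAB mouse 5, 10 or 11, and 2 without Sham mouse 9.

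The list called SMAD core tested Smad2, Smad3 and Smad4 together with Crebbp, Ep300, Sp1 and Trim33, which are not SMADs. Of the list, 6 of 7 tested fell in the RV and 1 did not pass, beside 10.8% of all genes called lower there. The list median was -0.38. The receptor-activated Smad3 fell by 0.53 (limma adjusted p = 0.0358) and the common partner Smad4 by 0.27 (0.0436) in the RV, while Smad2 did not pass. These calls were close to the threshold. Smad3 lost it without nPAB mouse 5, 6 or 11 or Sham mouse 11, 12 or 13 (adjusted p from 0.0501 to 0.115), and Smad4 without nPAB mouse 5, 6, 8, 10 or 11 or Sham mouse 9, 10 or 12 (0.0553 to 0.113) and without mice 6 and 7 together (0.0618). With no filter on low values, which adds genes to the adjustment, neither passed (0.0677 for Smad3 and 0.132 for Smad4). Smad4 also lost its call with a sex term in limma (0.0539). Crebbp, a histone acetyltransferase and SMAD co-activator, fell to 1635 ± 138 in RV nPAB against 2431 ± 114 in RV Sham (log2 fold change -0.57, adjusted p = 3.05e-05). The related Ep300 fell by 0.37, the transcription factor Sp1 by 0.38 and the Smad4 ubiquitin ligase Trim33 by 0.41. In the LV, Crebbp fell by 0.38 and the other 6 did not pass, beside 4.55% of all genes called lower, with a list median of -0.26, and Ep300 at -0.26, Sp1 at -0.23 and Trim33 at -0.26 had adjusted p of 0.0809, 0.0549 and 0.0923. LV Sp1 passed in 5 of 24 alternatives. These were limma without nPAB mouse 11 (0.0491), with array weights (0.0373) or with a filter at a mean of 50 (0.0448), edgeR (0.0499) and DESeq2 (0.0216). Smad3 averaged 116 ± 27.1 in LV nPAB and 163 ± 42.7 in LV Sham. In the RV it averaged 112 ± 19.9 in nPAB and 164 ± 38.9 in Sham. LV Smad3 passed in none of 24 alternatives (adjusted p from 0.0521 to 0.321). Smad4 averaged 352 ± 34.7 in LV nPAB and 396 ± 50.7 in LV Sham, and also passed in none there (0.258 to 0.630). Setting mice 6 and 7 aside, 5 of the list fell in the RV and 1 in the LV, and 2 fell in the LV without nPAB mouse 11.

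Of the other feedback and turnover genes, 5 of 18 rose, 2 fell and 11 did not pass in the RV, and 3 rose, 1 fell and 14 did not pass in the LV, with medians of 0.06 and 0.01. Over all genes 11.1% were called higher and 10.8% lower in the RV, and 4.76% and 4.55% in the LV. Smad6, the second inhibitory SMAD and mainly an inhibitor of BMP signalling, rose to 162 ± 40.6 in RV nPAB against 90.2 ± 27.2 in RV Sham, and to 126 ± 41.6 in LV nPAB against 67 ± 17.5 in LV Sham (log2 fold changes 0.86 and 0.88). Pmepa1, which sequesters receptor-activated SMADs, rose by 0.50 in the RV and 0.44 in the LV. Its groups did not overlap, as for 6.84% of genes tested in the RV and 3.38% in the LV that were higher in nPAB. Ppp1r15a (GADD34), which directs a phosphatase to several substrates, rose by 0.87 and 0.82. Nedd4l, a ubiquitin ligase for activated Smad2 and Smad3, fell by 0.65 and 0.35. Of these genes 4 rose and 2 fell in the RV without mice 6 and 7, and 2 rose and 0 fell in the LV. In the RV 1 fell without Sham mouse 11. In the LV 1 rose without Sham mouse 12, and 0 fell without nPAB mouse 7 or without Sham mouse 10, 11 or 12. LV Smad6 no longer passed without nPAB mouse 7 (adjusted p = 0.0654), nPAB mouse 8 (0.0580) or Sham mouse 10 (0.0558), 12 (0.0542) or 13 (0.0659), nor without the trend and robust options (0.0606). LV Ppp1r15a no longer passed without Sham mouse 12 (0.0521) or without mice 6 and 7 (0.0929). LV Nedd4l no longer passed without nPAB mouse 7 (0.0625) or Sham mouse 10 (0.0561), 11 (0.0702) or 12 (0.0619), without mice 6 and 7 (0.120), with no filter (0.0641) or without the trend and robust options (0.0609).

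Of genes known as TGF-beta targets in other settings, 10 of 26 tested rose, 2 fell and 14 did not pass in the RV, and 7 of 25 rose, 1 fell and 17 did not pass in the LV, again beside 11.1% and 10.8% of all genes in the RV and 4.76% and 4.55% in the LV. The medians were 0.32 and 0.28, and the list mixes matrix, contractile and cell cycle genes that many signals regulate. Bhlhe40, a transcriptional repressor, had the smallest p of the list in both ventricles: 697 ± 161 in RV nPAB against 216 ± 47.9 in RV Sham, and 569 ± 138 in LV nPAB against 233 ± 25.2 in LV Sham (log2 fold changes 1.69 and 1.26, limma adjusted p = 2.42e-06 and 5.03e-05). Cdkn1a (p21), a cell cycle inhibitor, rose by 1.09 and 0.96. Timp1, a metalloproteinase inhibitor, rose by 1.06 in the RV and was at 0.48 in the LV (adjusted p = 0.135). Col3a1, a fibrillar collagen, fell by 0.56 in the RV and was at -0.15 in the LV (adjusted p = 0.394). Lox, which crosslinks collagen and elastin, rose by 0.83 in the RV (adjusted p = 0.0350) and 0.50 in the LV, and Eln (elastin) by 0.52 in the LV, where in the RV it was at 0.48 (adjusted p = 0.452). Leaving out mice 6 and 7, 8 of 25 tested rose and 3 fell in the RV, and 2 rose and 1 fell in the LV. In the LV 4 rose without nPAB mouse 6, 7 or 8 or Sham mouse 9, 10 or 13, 2 fell without nPAB mouse 6 and 0 fell without Sham mouse 9. LV Eln no longer passed without mice 6 and 7 (adjusted p = 0.0643) or without the trend and robust options (0.0586). LV Lox no longer passed without mice 6 and 7 (0.0915), without Sham mouse 12 (0.0521) or without those options (0.0701). RV Lox no longer passed without mice 6 and 7 (0.106), nor without nPAB mouse 6, 7 or 11 or Sham mouse 9, 10, 12 or 13 (0.0550 to 0.0813), nor with no filter (0.0789). For none of the 5 lists did any gene pass the test of the difference between ventricles, and over that comparison the count of all genes called was 1.

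The genes most like Tgfbr3, Smad7 and Skil, the 3 members with the smallest p in the RV, were found by the root mean square distance between log2 values centred on the Sham mean, over 22 libraries and 10226 genes. Nearest to Tgfbr3 were Ppip5k2 (0.179), an inositol pyrophosphate kinase, Erbb4 (0.232), the neuregulin receptor, and Pcnt (0.254), a centrosome protein, against a median distance of 0.702 over all genes compared. Their RV log2 fold changes were -0.86, -0.96 and -0.91, against -0.31, -0.31 and -0.55 in the LV. Nearest to Smad7 were Ndrg1 (0.221), a stress-responsive gene, Mcf2l (0.240) and Fam117b (0.246), against a median of 0.877. Nearest to Skil were the galectin Lgals1 (0.108), Heg1 (0.137), a transmembrane protein of endothelium and endocardium, and Aff4 (0.152), a scaffold of transcription elongation, against a median of 0.434. These libraries share their Sham means and their scaling, so the distances are descriptions.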

How the data were processed

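Per the labels' protocols, RNA of ventricular tissue was extracted (Qiagen RNeasy Plus Mini) and turned into libraries (Revelo RNA-Seq High Sensitivity). Cutadapt, featureCounts and DESeq2 appear in the submitters' processing notes, as does the mm10 build. Neither the aligner, the annotation, the versions nor the strand setting is given in the sources used here. For each ventricle the authors deposited a table of signal values that are never negative. Per the labels these are normalized counts from DESeq2, scaled for each ventricle on its own. Within 0.001, 100% of the values of every library came out as a whole number of reads. This gave the depth, and the reads on which edgeR and DESeq2 ran as alternatives.

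The tests were made with limma 3.58.1 in R 4.3.3 (eBayes, trend and robust both on). They ran on log2(value + 1), a scale that understates changes of low genes, for genes averaging at least 10, and were two-sided. Adjusted p-values are Benjamini-Hochberg, with a threshold of 0.05. RV and LV were fitted apart. To compare the ventricles, the log2 LV value was subtracted from the log2 RV value of the same mouse and nPAB was tested against Sham. No label states litters or cage mates, so p-values measure the spread between these mice. Numbers in the sample titles paired RV with LV. Deviations from the group means correlated within a pair at 0.132 to 0.383 in 9 mice, and at 0.172 and 0.0548 in nPAB mice 6 and 7. The 2 most similar libraries of a group still differed beyond sampling noise (chi-square of 7.07 for each degree of freedom). Scripts were tested on simulated data.

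The members and gene lists were chosen with earlier results of these data known. All members are named, with up to 4 called genes of smallest p per list and ventricle. Smad3 and Smad4 were added after their values were seen. Gene names and bounds came from the GENCODE annotation of mm10 (49411 RV and 49412 LV genes with a symbol) and promoters from RefSeq on GRCm38.p6. Alternatives covered another pseudocount, filter, scaling or variance model, weights for libraries, a term for sex, the replicate block, edgeR 4.0.16 and DESeq2 1.42.0, and mice left out. Taking the variance trend over the mean level was added after the data were seen. Figures were drawn with matplotlib 3.10.9.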

Additional observations from a re-analysis of the deposited data

Results flagged for a closer look

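Among 36 combinations of gene and group, 2 had a library that stood apart from the rest of its group by Dixon's 95% criterion, and chance flags about 1 in 20. Ltbp1 in the LV of nPAB mouse 6 was at 521 normalized counts, the lowest of 6 LV nPAB libraries, whose others lay at 661 to 745. This library is also 1 of the 4 whose sex does not match the other library of its mouse. Tgfbr1 in the LV of Sham mouse 13 was at 355, the lowest of 5 LV Sham libraries, whose others lay at 438 to 469. Neither gene passed the test in the LV.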

How the results depend on the processing

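In the RV, Tgfbr3, Ltbp1, Smad7 and Skil kept their direction and their call in all 24 alternatives, as Smad7 did in the LV. LV Skil lost its call without mice 6 and 7 (adjusted p = 0.0588), which left 1 member higher there. RV genes called numbered 2399 to 3015 when each mouse was left out in turn, and 2999 with all. LV genes called numbered 739 without trend and robust options and 668 without mice 6 and 7, against 1260. Values near 0 changed sign: RV Tgfbr1 to -0.00017 and LV Tgfbr1 to -0.0148 without mice 6 and 7, and LV Ltbp1 to -0.00724 with edgeR, -0.00688 with DESeq2 and -0.00605 with a sex term. Leaving out each mouse in turn, LV Tgfbr1 ranged from -0.0622 to 0.0377 and LV Ltbp1 from -0.0592 to 0.0928 on the log2 scale, and LV Cd109 ranged from -0.00577 to 0.160. In the difference between ventricles, Smad7 then ranged from -0.0730 to 0.165, Tgfb2 from -0.0322 to 0.171 and Tgfb3 from -0.00376 to 0.293. Genes called in that difference, 1 with all mice, numbered 0 with a pseudocount of 0.5, with a sex term or with mice 6 and 7 paired crosswise, 35 with a filter at a mean of 50, 9 with array weights, 29 without mice 6 and 7, 158 with edgeR, 249 with DESeq2, 148 with the variance trend over the mean level and 0 to 20 when each mouse was left out. Ltbp1 was the 1 member called lower with edgeR, DESeq2 and that trend. Why these counts moved was not tested. Level per kb in RV nPAB moved by more than its SD with the longest transcript for Skil (138), Ltbp1 (92.5) and Tgfb1 (101). TMM and upper quartile scaling shifted the median of all genes by at most 0.03.

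With no replicate block, that is with RV and LV of a mouse unpaired, 5 genes were called in the difference between ventricles, no member among them. In the RV and LV, nPAB and Sham mice share the numbers 10 and 11 alone, and their libraries correlated at -0.0771 to -0.0290. No label states litters or cage mates, and these correlations cannot tell whether such mice share more than the number. With a replicate block for these numbers 2874 RV and 1245 LV genes were called, and no member changed its call; of the list genes named, RV Smad4 lost its call (adjusted p = 0.0560) and LV Ep300 gained one (0.0434). At 7.11 to 11.3 M reads per library, Tgfb3, the member with the lowest counts, had 65.6 to 207 normalized counts.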
